A study of Mus musculus with 8 samples.

Results

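The 10 genes followed here are grouped as products of extraembryonic endoderm. They were measured in mouse embryonic stem (ES) cells before and after retinoic acid (RA). The group holds the endocytic adaptor *Dab2*, the receptors *Amn*, *Cubn* and *Lrp2*, and the secreted proteins *Ttr*, *Afp*, *Apoa1* and *Apoe*. The other members, *Thbd* and *Plat*, are grouped as parietal endoderm products. *Apoe* and *Lrp2*, among others, were well above background on every untreated array, so the list does not by itself identify the tissue. The members were found by name among the probes of an Agilent expression array that are not controls. All 10 were found, on 11 of the 55681 probes, and they are 10 of the 36406 genes or transcripts that the array names. *Cubn* had 2 probes and each of the other members had 1. The cells were E14Tg2A.4 mouse ES cells, a single line, with 4 biological replicates left untreated and 4 treated with RA for 72 h. By the study's methods the agent was all-trans RA at 1 µM for 3 days in medium without leukemia inhibitory factor. Whether the untreated cells were kept in that factor is not given in the sources used here, so an effect of RA and an effect of the medium cannot be told apart. Total RNA of each culture was labelled with Cy3 and hybridized to an array of its own.

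Extraembryonic endoderm arises in the early embryo as primitive endoderm, which then splits into visceral endoderm, a polarized layer that takes up maternal nutrients by endocytosis and secretes serum proteins, and parietal endoderm, which lays down the thick basement membrane known as Reichert's membrane. In visceral endoderm, cubilin and amnionless form one receptor complex, megalin (*Lrp2*) is a large multiligand receptor that works with it, and Dab2 couples such receptors to clathrin. Embryonal carcinoma and ES cells exposed to RA are a classic system in which such genes are followed.

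Some probes are shown because a result turns on what they read: the *Amn* and second *Cubn* probes for their split among RA-treated cultures, *Apoa1* for its missing signal, *Apoe* as the member that fell and *Plat* as the member with the largest rise among those well above background on all arrays. They are given as printed on the array from 5′ to 3′ with mm9 positions from the scanner output. The *Amn* probe has its 60 bases spread over 149 bases of the genome (chr12:112514095-112514243, + strand), while the second *Cubn* probe (chr2:13205609-13205668, - strand), the *Apoe* probe (chr7:20281732-20281791, - strand), the *Apoa1* probe (chr9:46037921-46037980, + strand) and the *Plat* probe (chr8:23892531-23892590, + strand) each match an unbroken stretch. Their share of G and C was 51.7% for *Amn*, 35.0% for *Cubn*, 55.0% for *Apoe* and *Apoa1*, and 41.7% for *Plat*. Exon and UTR boundaries on mm9 were not used here.
Amn: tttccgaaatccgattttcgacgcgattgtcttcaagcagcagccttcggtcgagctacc
Cubn, second probe: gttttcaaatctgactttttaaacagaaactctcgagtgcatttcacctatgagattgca
Apoe: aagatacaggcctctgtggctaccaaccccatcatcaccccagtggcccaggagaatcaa
Apoa1: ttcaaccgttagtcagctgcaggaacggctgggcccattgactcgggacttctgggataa
Plat: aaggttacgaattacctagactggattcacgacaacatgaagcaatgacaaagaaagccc

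Levels are given as the log2 signal of a probe relative to the 75th percentile of its array, so that 0 is the percentile itself and a step of 1 is a doubling. Each array held 59305 spots that are not controls, of which 56.7% to 62.7% were well above background, and no spot was saturated. On this scale the median probe moved by -0.28 after RA, and changes are to be read against that shift. A gene was called at an adjusted p below 0.05 in limma and a change above 1.5-fold. All 11 markers of pluripotent ES cells were well above background on every array, and all 11 were called lower after RA. Arrays measure RNA of the whole culture, so more cells of a type and more RNA per cell cannot be told apart.

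Of the 10 members, 7 were called higher after RA (*Dab2*, *Cubn*, *Lrp2*, *Ttr*, *Afp*, *Thbd* and *Plat*), 1 was called lower (*Apoe*) and 2 were not called (*Amn* and *Apoa1*). Of all 36406 genes, 13.9% were called higher and 22.1% lower, and these include 9179 genes well above background on no array. The members were chosen with earlier results of these data known, so setting them beside all genes is a description and not a test. The median log2 fold change over the members was 2.28, against -0.28 over all genes. In 7 members all 4 RA-treated arrays lay above all 4 untreated arrays and in *Apoe* all 4 lay below, where 15.3% and 25.3% of all genes did so. Both conditions overlapped for *Amn* and *Apoa1*.

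**Figure D1:**
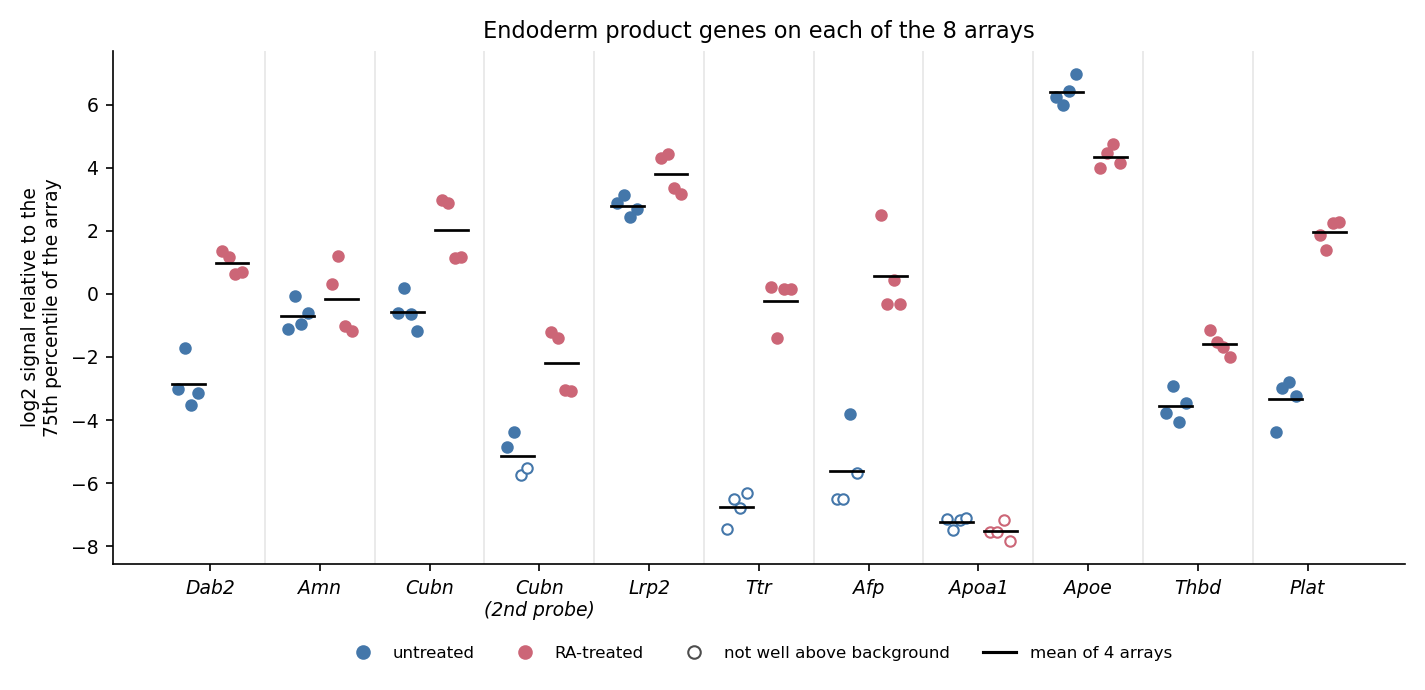
Level of each member on each array, as log2 signal relative to the array's 75th percentile, for untreated and RA-treated cells, with open points where the probe was not well above background and lines at the means of 4 arrays. The conditions separate for 8 members, *Apoe* is the one that lies lower after RA, and *Apoa1* is dim on all 8 arrays.

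*Dab2* encodes the clathrin adaptor that binds the tails of megalin-type receptors. Its probe lies at chr15:6390616-6390675 on the + strand of mm9. The level was -3.03, -1.71, -3.53 and -3.14 in untreated replicates 1 to 4 and 1.37, 1.18, 0.63 and 0.69 in RA-treated replicates 1 to 4. All 4 RA-treated cultures were above the highest untreated one, replicate 2. *Dab2* rose by 3.82 on the log2 scale (SE 0.38, 95% confidence interval 2.96 to 4.68), or 14.1-fold, with an adjusted p of 8.15e-05 in limma. With normexp background correction the log2 fold change was 3.22.

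*Cubn* encodes cubilin, the peripheral membrane receptor that binds intrinsic factor with cobalamin and other ligands. Its brighter probe lies at chr2:13197978-13198037 on the - strand. That probe read -0.60, 0.17, -0.65 and -1.17 in untreated replicates 1 to 4 and 2.98, 2.87, 1.15 and 1.16 in RA-treated replicates 1 to 4. RA-treated replicates 1 and 2 were well above replicates 3 and 4, and all 4 were above the untreated cultures. The rise was 2.60 on the log2 scale (SE 0.50, 95% confidence interval 1.47 to 3.73), or 6.07-fold, with an adjusted p of 0.00313 in limma. On the second probe, printed above, the untreated cultures read -4.87, -4.36, -5.76 and -5.53, of which only replicates 1 and 2 were well above background, and the RA-treated ones -1.21, -1.40, -3.06 and -3.09. Both probes showed the same split among the RA-treated cultures. The second probe rose by 2.94 (SE 0.51, adjusted p = 0.0019 in limma).

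*Amn* encodes amnionless, the membrane anchor that brings cubilin to the cell surface. The level of *Amn* was -1.11, -0.06, -0.97 and -0.62 in untreated replicates 1 to 4 and 0.32, 1.20, -1.02 and -1.19 in RA-treated replicates 1 to 4. RA-treated replicates 1 and 2 lay above all untreated cultures, and replicates 3 and 4 lay among or below them. The difference of 0.52 (SE 0.52, adjusted p = 0.433 in limma) was within the spread between replicates, with a 95% confidence interval from -0.67 to 1.70, which includes no change and more than a doubling. *Amn* was well above background on all 8 arrays.

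*Lrp2* encodes megalin. The probe at chr2:69262566-69262625 on the - strand read 2.88, 3.13, 2.43 and 2.69 in untreated replicates 1 to 4 and 4.31, 4.42, 3.36 and 3.16 in RA-treated replicates 1 to 4. The RA-treated cultures were higher without overlap, but replicate 4 exceeded the highest untreated culture by little. *Lrp2* rose by 1.03 on the log2 scale (SE 0.32, 95% confidence interval 0.31 to 1.75), or 2.04-fold, with an adjusted p of 0.0307 in limma. This call was lost without untreated replicate 1, 3 or 4 or RA-treated replicate 1 or 2, where the adjusted p in limma was 0.0575, 0.0721, 0.0683, 0.0817 and 0.0735, and also within slide 1 (adjusted p = 0.171) and within slide 2 (adjusted p = 0.186).

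Of 14 other endocytic receptors and adaptors, 7 were called higher, 2 lower and 5 were not called, with a median log2 fold change of 0.67. Over all genes 13.9% were called higher and 22.1% lower. *Gulp1*, an engulfment adaptor, rose by 3.12 (SE 0.16) and *Clcn5*, an endosomal chloride-proton exchanger, by 2.69 (SE 0.19), with adjusted p values in limma of 4.10e-06 and 1.54e-05. *Dab1*, the neuronal relative of *Dab2*, fell by 1.83 (SE 0.25, adjusted p = 0.000468). *Lrpap1*, a chaperone of megalin and related receptors, fell by 0.63 (SE 0.20, adjusted p = 0.0322 in limma), a call that was lost with quantile normalization (adjusted p = 0.138). *Lrp1*, *Lrp8*, *Vldlr* and *Gipc1* were also called higher. With the replicate number as a block 6 were called higher and 1 lower, since *Gipc1* (adjusted p = 0.0624 in limma) and *Lrpap1* (adjusted p = 0.0814) lost their calls. Both were also lost within each slide and against 1.5-fold, *Gipc1* without untreated replicate 1 or 3 or any RA-treated replicate (adjusted p from 0.0508 to 0.0822 in limma), and *Lrpap1* without untreated replicate 2, 3 or 4 or RA-treated replicate 2, 3 or 4 (0.0625 to 0.0924). *Lrp1* was lost within slide 1 (adjusted p = 0.0518 in limma) and *Lrp8* within slide 2 (0.0732).

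Among the serum proteins, *Afp* encodes alpha-fetoprotein, a carrier protein of yolk sac and fetal liver. Its probe (chr5:90937781-90937840, + strand) was spotted 10 times per array. The mean over spots was -6.49, -6.49, -3.80 and -5.69 in untreated replicates 1 to 4 and 2.49, -0.33, 0.42 and -0.32 in RA-treated replicates 1 to 4. All RA-treated cultures were above the untreated ones, and among the untreated cultures only replicate 3 was well above background, on 10 of 10 spots. *Afp* rose by 6.18 on the log2 scale (SE 0.77, 95% confidence interval 4.43 to 7.94), with an adjusted p of 0.000292 in limma. Since 3 of the 4 untreated arrays were dim, the size of the rise is uncertain, and it was 5.53 with dim values raised to the lowest signal well above background. With normexp background correction the log2 fold change was 3.89. The rise was 5.54 without RA-treated replicate 1 and 6.79 without untreated replicate 3.

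*Ttr* encodes transthyretin, the carrier of thyroid hormone and of the retinol-binding protein. Its probe read -7.45, -6.50, -6.77 and -6.30 in untreated replicates 1 to 4, on none of which it was well above background, and 0.22, -1.40, 0.16 and 0.15 in RA-treated replicates 1 to 4, on all of which it was. Replicate 2 stood below the other RA-treated cultures but far above every untreated one. Since the untreated level is only bounded, *Ttr* was at least 37.3-fold higher after RA, taking the lowest signal well above background on each untreated array as the limit (adjusted p = 8.39e-06 in limma). With normexp correction, which adds an offset, the log2 fold change was 3.48, below that bound.

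*Apoe* encodes apolipoprotein E, a lipid carrier that megalin and related receptors bind. The level of *Apoe* was 6.23, 5.98, 6.44 and 6.97 in untreated replicates 1 to 4 and 3.97, 4.45, 4.74 and 4.15 in RA-treated replicates 1 to 4. The untreated cultures were all above the RA-treated ones, and the probe was well above background throughout. *Apoe* fell by 2.08 on the log2 scale (SE 0.25, 95% confidence interval -2.65 to -1.51), or 4.22-fold, with an adjusted p of 0.000244 in limma.

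*Apoa1* encodes the main protein of high-density lipoprotein. Its 10 spots per array read between -7.47 and -7.11 on average in untreated cultures and between -7.82 and -7.17 in RA-treated cultures. No spot of *Apoa1* was well above background on any array, so no fold is given and a low level could not be measured (adjusted p = 0.204 in limma). The repeated spots show how well single arrays measured these 3 genes. The SD over spots of an array was at most 0.035 for *Apoe*, between 0.031 and 0.111 for *Afp* in RA-treated cells and between 0.196 and 0.616 for *Afp* in untreated cells. Repeat spots share their labelling and hybridization, so these SDs say nothing of the spread between cultures.

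**Figure D2:**
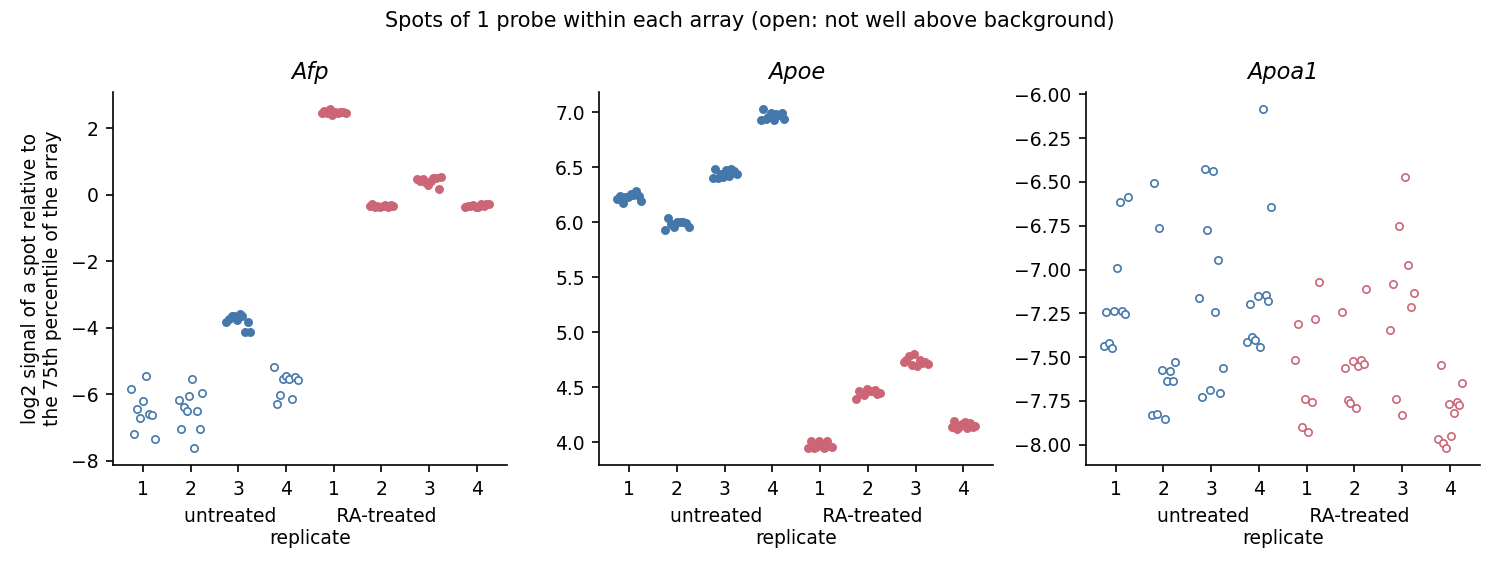
Log2 signal of each spot of the 3 members spotted 10 times per array, relative to the array's 75th percentile, by array. Spots of one array lie close together for *Apoe* (SD at most 0.035) and apart where the signal is dim.

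The genes next to these members were looked up in RefSeq gene order on GRCm38.p6, and were chosen after their values had been seen. Beside *Apoe*, the apolipoprotein genes *Apoc1* and *Apoc2* fell by 2.17 and 2.08 (adjusted p = 2.00e-05 and 0.00198 in limma), and *Apoc4*, dim in RA-treated cells, was at least 1.76-fold lower (adjusted p = 4.80e-05). On the other side *Tomm40*, of the mitochondrial import pore, fell by 0.84 (adjusted p = 0.00690 in limma), *Nectin2* differed by 0.70 (adjusted p = 0.0528), and by 0.85 and called higher with quantile normalization, and *Bcam* rose by 1.47 (adjusted p = 0.000965). Calls next to *Apoe* thus ran in both directions. *Alb* and *Afm*, members of the albumin family beside *Afp*, were not well above background on any array. Beside *Apoa1*, *Apoa4* was likewise dim on all arrays, *Apoc3* differed by -0.27 (adjusted p = 0.406 in limma), *Apoa5* fell by 0.59 (adjusted p = 0.0438), a call that was lost with quantile normalization, and *Sidt2* and *Pafah1b2* rose by 1.26 and 0.91.

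Of 20 other products of visceral endoderm, 6 were called higher, 7 lower and 7 were not called. All genes gave shares of 13.9% higher and 22.1% lower. The median of the list was 0.19, or -0.31 with dim values raised to the lowest signal well above background. The signalling protein gene *Bmp2* rose by 7.27 (SE 0.38, adjusted p = 4.26e-06 in limma) and *Fgb*, fibrinogen beta, by 3.70 (SE 0.65, adjusted p = 0.00197), both from an untreated level well above background in 1 of 4 cultures. With dim values raised in the same way as for *Afp*, the rises were 7.11 and 2.42. *Amot*, angiomotin, rose by 3.69 (SE 0.20, adjusted p = 4.68e-06), *Rbp4*, the retinol-binding protein of plasma, by 2.46 (SE 0.21, adjusted p = 3.64e-05) and *Trf*, transferrin, by 1.24 (SE 0.20, adjusted p = 0.00116), and *Ihh* was also called higher. *Apob*, the core protein of secreted lipoproteins, differed by 1.25 (SE 0.47, adjusted p = 0.0671 in limma), and was called higher with the replicate number as a block (adjusted p = 0.0102), with normexp correction under either scaling (0.0363 and 0.0472), with the authors' values (0.0482), with dim probes filtered out (0.0415) or raised (0.0399), and without untreated replicate 3 (0.0119) or RA-treated replicate 2 (0.0249). The genes called lower were *Apoc1*, *Apoc2*, *Apom*, *Fga*, *Fgg*, *Spink3* and *Rhox5*. Within slide 1 *Trf* lost its call (adjusted p = 0.0905 in limma), and within slide 2 *Fgb* (2.71, adjusted p = 0.0638) and *Apoc2* (adjusted p = 0.0561) lost theirs, while 3 genes of the list were called lower within slide 1 and 1 within slide 2. With quantile normalization 2 of these 7, *Apoc1* and *Apoc2*, were called lower. With an array left out 4 to 6 genes were called lower, the fewest without untreated replicate 2 or 4 or RA-treated replicate 4.

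*Plat* encodes tissue plasminogen activator, a secreted protease of parietal endoderm. Its level was -4.37, -2.99, -2.79 and -3.24 in untreated replicates 1 to 4 and 1.85, 1.39, 2.25 and 2.29 in RA-treated replicates 1 to 4. The gap between the conditions was wider than the spread within either. *Plat* rose by 5.29 on the log2 scale (SE 0.36, 95% confidence interval 4.47 to 6.11), or 39.1-fold, with an adjusted p of 1.28e-05 in limma. With normexp correction the log2 fold change was 4.46.

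*Thbd* encodes thrombomodulin, the membrane receptor of thrombin that is also found on parietal endoderm and trophoblast. The probe at chr2:148230235-148230294 on the - strand read -3.78, -2.91, -4.06 and -3.47 in untreated replicates 1 to 4 and -1.16, -1.53, -1.70 and -2.01 in RA-treated replicates 1 to 4. The conditions did not overlap. *Thbd* rose by 1.96 (SE 0.28, 95% confidence interval 1.32 to 2.59), or 3.88-fold, with an adjusted p of 0.000607 in limma. With normexp correction the log2 fold change was 1.26. Of 5 trophoblast markers all were called higher, where 13.9% of all genes were. Their summed linear signal, in units of the array's 75th percentile, was 0.249 to 0.686 in untreated and 11.97 to 17.0 in RA-treated cells. Of 7 endothelial markers none was called higher and 3 were called lower, where 22.1% of all genes were lower. Their sums were 5.38 to 6.86 and 1.84 to 2.54, and *Cdh5* and *Emcn* were dim on all arrays. The part of such cells in the rise of *Thbd* was not tested.

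Of 14 other genes of the plasminogen and thrombomodulin systems, 6 were called higher, 2 lower and 6 were not called, with a median of 0.48. The shares over all genes were 13.9% higher and 22.1% lower. *Anxa2*, a cell-surface binder of tissue plasminogen activator, rose by 3.62 (SE 0.26, adjusted p = 1.61e-05 in limma) and *F3*, tissue factor, by 3.20 (SE 0.24, adjusted p = 2.17e-05). *F2*, prothrombin, fell by 3.90 (SE 0.28, adjusted p = 1.78e-05 in limma) and *Proc*, protein C, by 2.64 (SE 0.28, adjusted p = 0.000113), both of them plasma zymogens. *Plau*, urokinase, rose by 2.48 (SE 0.57, adjusted p = 0.00828 in limma) from a level well above background in 1 of 4 untreated cultures, and by 1.50 with dim values raised in the same way. *Plaur*, *S100a10* and *F2r* were called higher. *Plau* lost its call within slide 1 (adjusted p = 0.157 in limma), and *S100a10* within slide 1 (0.0745), within slide 2 (0.0693) and against 1.5-fold (0.0644).

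Of 12 other genes of parietal endoderm and basement membrane, 10 were called higher, 1 lower and 1 was not called, with a median of 2.21. Over all genes the shares were 13.9% higher and 22.1% lower. The type IV collagen chains *Col4a2* and *Col4a1* rose by 4.02 (SE 0.28) and 3.79 (SE 0.26), the intermediate filament gene *Vim* by 3.98 (SE 0.19) and the collagen chaperone *Serpinh1* by 3.33 (SE 0.15), with adjusted p values in limma of 1.44e-05, 1.42e-05, 2.94e-06 and 2.28e-06. The remaining 6 called higher were *Sparc*, *Lama1*, *Lamb1*, *Pth1r*, *Srgn* and *Fst*. *Nid1*, which links laminin to type IV collagen, fell by 1.42 (SE 0.20, adjusted p = 0.000617 in limma), and *Lamc1* was not called. Within slide 2 alone 6 genes were called higher, as *Sparc*, *Lama1*, *Lamb1* and *Srgn* lost their calls (adjusted p = 0.0688, 0.120, 0.0567 and 0.102 in limma). Within slide 1 alone *Nid1* lost its call (adjusted p = 0.0646 in limma), which left 0 genes lower, as did *Lama1* (0.0553), which was also lost against 1.5-fold. All 6 markers of smooth muscle and fibroblasts, cells that also make collagens and vimentin, were called higher, with sums of 2.42 to 4.11 in untreated and 257.8 to 477.2 in RA-treated cells, and their part in these values was not tested.

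Of 9 transcription factor genes of the endoderm, 7 were called higher, 1 lower and 1 was not called, with a median of 2.15. Among all genes 13.9% were called higher and 22.1% lower. *Foxa2* rose by 5.03 (SE 0.29), *Foxa1* by 4.28 (SE 0.34), *Gata6* by 3.28 (SE 0.31), *Sox17* by 3.05 (SE 0.38) and *Gata4* by 1.31 (SE 0.22), with adjusted p values in limma of 6.42e-06, 2.59e-05, 6.79e-05, 0.000280 and 0.00141. *Sox7* was also called higher. *Gata4* was not called within slide 2 (adjusted p = 0.0740 in limma). *Hhex* fell by 0.63 (SE 0.16, adjusted p = 0.0124 in limma). This change lay close to the 1.5-fold limit, and the call was lost with the percentile over bright probes (-0.51), with normexp correction under either scaling (-0.57), with the authors' values (-0.56), within each slide (-0.79 and -0.47), in a test against 1.5-fold, and without untreated or RA-treated replicate 3 (-0.57 each). *Hnf4a*, a regulator of lipoprotein genes in visceral endoderm, read -2.28, -2.52, -2.40 and -2.56 in untreated and -1.65, -1.65, -3.22 and -3.87 in RA-treated replicates 1 to 4. RA-treated replicates 1 and 2 of *Hnf4a* were above and replicates 3 and 4 below all untreated cultures (mean difference -0.16, adjusted p = 0.807 in limma).

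**Figure D3:**
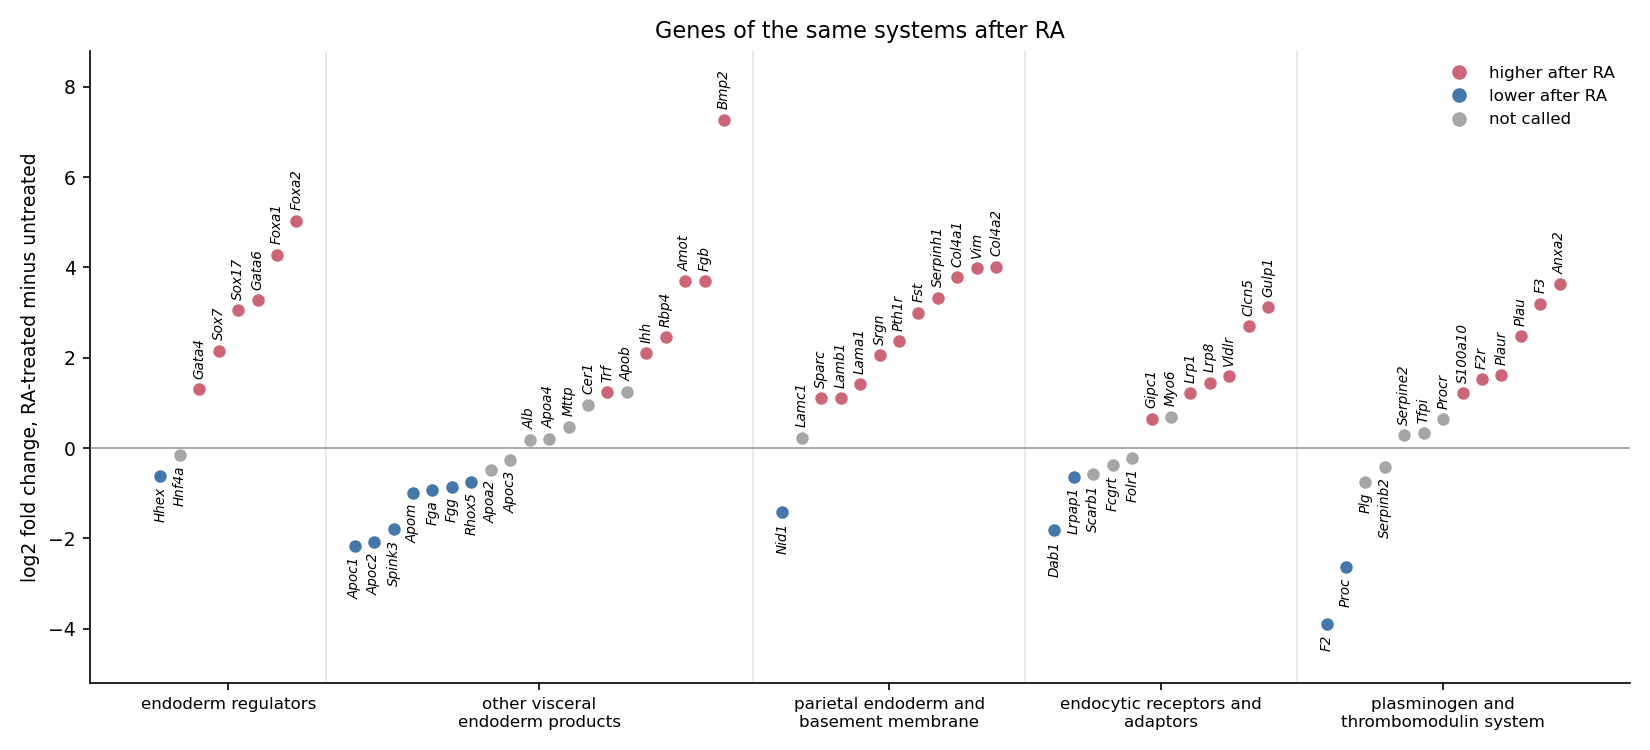
Log2 fold change (RA-treated minus untreated, 4 arrays each) of 65 of the 69 genes of the same systems, by list, with colour for the call. Of all 69, 36 were called higher, 13 lower and 20 were not called, where 13.9% of all genes were higher and 22.1% lower. The parietal endoderm list of 12 holds 10 genes called higher (6 to 10 over other settings). The list of 20 other visceral endoderm products holds 6 higher and 7 lower. That lower count was 4 to 6 with an array left out and 1 to 7 over other settings.

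Markers of other cell types were read from the same fit, where 13.9% of all genes were called higher and 22.1% lower. Of 9 neural markers 3 were called higher and 1 lower, with sums of 6.83 to 11.2 in untreated and 15.5 to 17.5 in RA-treated cells. Of 5 mesoderm markers none was called higher and 2 were called lower, 1 of which, *Mixl1*, was dim on all arrays and lost its call with quantile normalization (adjusted p = 0.152 in limma), with sums of 0.413 to 0.798 and 0.303 to 1.51. Of 5 macrophage markers none was called, with *Ptprc* and *Lyz2* dim on all arrays and sums of 0.416 to 0.920 and 0.567 to 0.811. The 11 pluripotency markers summed to 413.7 to 530.7 in untreated and 12.6 to 45.1 in RA-treated cells. Their part in the levels of the 10 members was not tested.

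Members differed in how the RA-treated cultures spread. RA-treated replicates 1 and 2 both lay above replicates 3 and 4 for *Dab2*, *Amn*, *Cubn*, *Lrp2* and *Thbd*, with gaps between the pairs of 0.49, 1.35, 1.71, 0.95 and 0.16 on the log2 scale, and the second *Cubn* probe showed a gap of 1.66. *Plat* had the reverse order. Of the 20388 genes well above background on all arrays, 26.1% had the first order and 20.3% the reverse. The receptor genes and their adaptor are in this order on 5 of 5 probes, with *Cubn* counted on both of its probes, and so is *Thbd*. The second *Cubn* probe was not well above background on all arrays, so the share of 26.1% does not cover it. This order is a description of these 4 cultures. RA-treated replicates 1 and 4 were on slide 1 and replicates 2 and 3 on slide 2. Among untreated cultures, replicate 2 was the highest for *Dab2*, *Amn*, *Cubn*, *Lrp2* and *Thbd*.

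**Figure D4:**
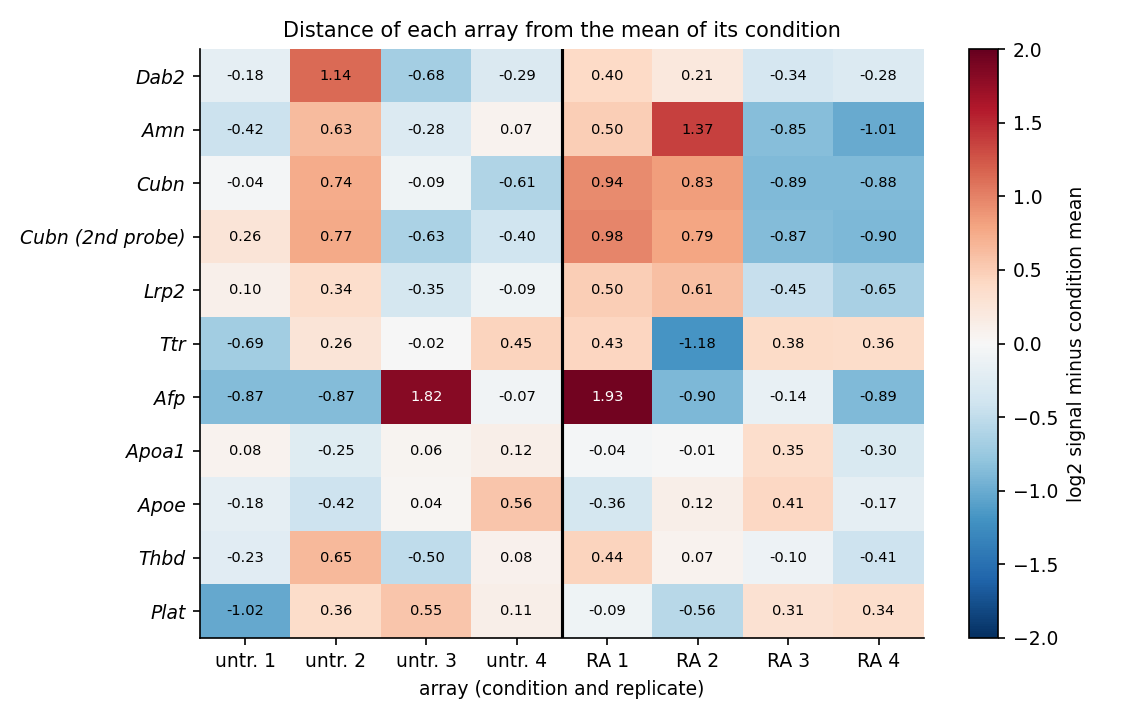
Deviation of each array from the mean of its condition (log2 scale) for each member, with arrays grouped by condition and replicate. RA-treated replicates 1 and 2 sit above replicates 3 and 4 for *Dab2*, *Amn*, *Cubn*, *Lrp2* and *Thbd*, and *Afp* is highest in RA-treated replicate 1.

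Both slides held 2 arrays of each condition, and fits within a slide rest on 2 arrays against 2. Within slide 1 alone 6 members were called higher and within slide 2 alone 5, since *Lrp2* was lost on both and *Cubn* on slide 2 (2.51, adjusted p = 0.0573 in limma). *Apoe* was called lower on either slide.

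**Figure D5:**
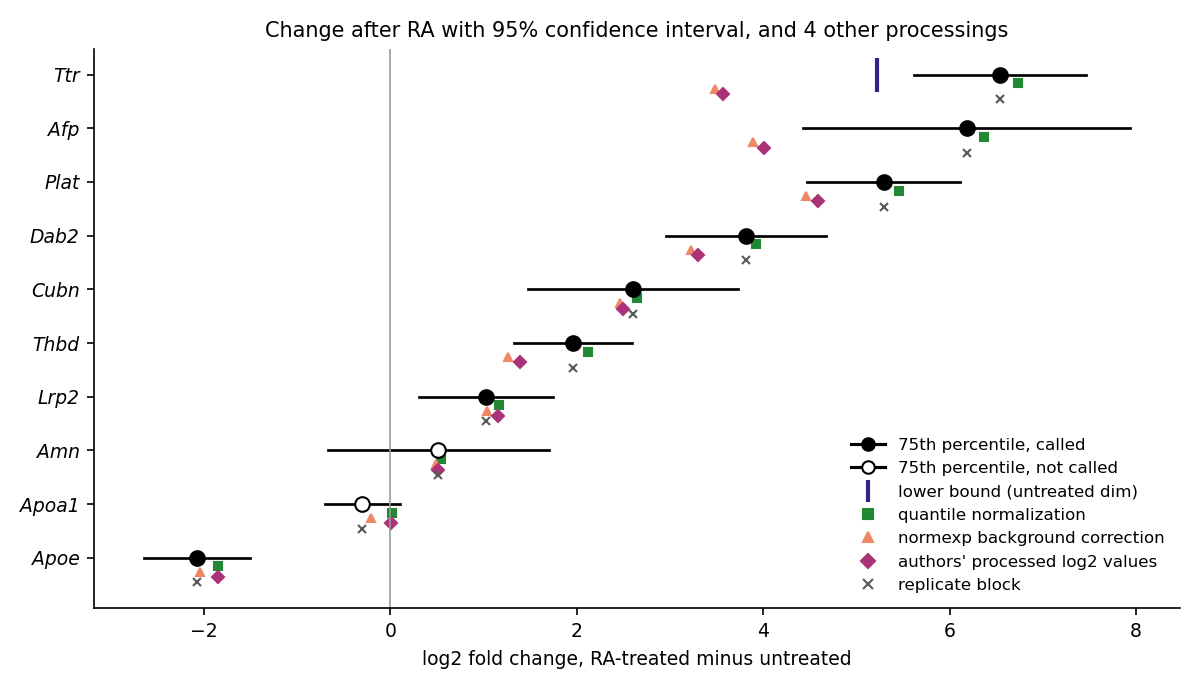
Log2 fold change of each member with its 95% confidence interval (4 arrays per condition), and the value under 4 other processings of the same arrays; the vertical bar for *Ttr* is its lower bound of 37.3-fold. Values for *Ttr*, *Afp* and *Plat* are smaller with normexp correction (3.48, 3.89 and 4.46), and *Apoe* is below 0 under all 5.

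By the correlation of log2 levels over the 8 arrays, the genes most like *Plat* among 12391 named genes well above background on all arrays were *St7*, *Jam3* and *Cd74*, with Pearson's r of 0.997, 0.997 and 0.996. Those most like *Apoe* were *Mfsd5*, *Ddx28* and *Napsa*, with r of 0.996, 0.994 and 0.994. These r describe 8 points that fall into 2 conditions.

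Stretches upstream of the start sites were read from RefSeq promoters on GRCm38.p6, for 7 of the 10 members; *Ttr*, *Thbd* and *Plat* were not searched. Short motifs, 5 in all, were looked for on both strands in the 250 bases before each start, and their shares are given over all 32851 windows of this length. The motif of zinc finger factors of the Gata4 and Gata6 family, GATAA, was in 22.6% of windows. The homeodomain letters GTTAAT were in 6.43% of them. The forkhead letters searched for the Foxa factors, TGTTTAC, were in 3.17%. The nuclear receptor letters TGACCT were in 14% of windows. The core promoter element TATAAA was in 12.4%. GTTAAT began 105 bases before the *Afp* start and 65 bases before the second *Dab2* start, TATAAA began 7 bases before the *Afp* start, and GATAA began 178 bases before the first *Dab2* start. *Amn*, *Cubn*, *Lrp2*, *Apoa1* and the first *Apoe* start had no match to any of the 5, while the second *Apoe* start had TATAAA on both strands, overlapping, and start 3 had GTTAAT on the minus strand. The windows of *Afp* and *Dab2*, members that rose and hold matches, and of *Cubn*, which rose and holds none, are shown with matches in capitals. They are Afp (chr5:90490464-90490713, + strand), Dab2 start 1 (chr15:6299539-6299788, + strand), Dab2 start 2 (chr15:6386498-6386747, + strand) and Cubn (chr2:13491877-13492126, - strand).
Afp: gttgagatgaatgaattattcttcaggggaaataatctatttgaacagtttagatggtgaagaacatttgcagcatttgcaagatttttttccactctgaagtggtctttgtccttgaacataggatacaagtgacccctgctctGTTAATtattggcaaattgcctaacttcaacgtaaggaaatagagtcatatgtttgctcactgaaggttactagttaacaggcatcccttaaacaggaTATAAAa
Dab2 start 1: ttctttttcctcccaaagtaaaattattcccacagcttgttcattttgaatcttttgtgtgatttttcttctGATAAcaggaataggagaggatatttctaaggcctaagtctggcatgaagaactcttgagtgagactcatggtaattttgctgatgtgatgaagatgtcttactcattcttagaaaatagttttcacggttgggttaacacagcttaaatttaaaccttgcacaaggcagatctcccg
Dab2 start 2: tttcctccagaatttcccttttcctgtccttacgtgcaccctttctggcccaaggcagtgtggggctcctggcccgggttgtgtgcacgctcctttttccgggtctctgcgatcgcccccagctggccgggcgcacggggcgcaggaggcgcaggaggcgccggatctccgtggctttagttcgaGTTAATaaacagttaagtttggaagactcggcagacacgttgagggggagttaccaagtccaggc
Cubn: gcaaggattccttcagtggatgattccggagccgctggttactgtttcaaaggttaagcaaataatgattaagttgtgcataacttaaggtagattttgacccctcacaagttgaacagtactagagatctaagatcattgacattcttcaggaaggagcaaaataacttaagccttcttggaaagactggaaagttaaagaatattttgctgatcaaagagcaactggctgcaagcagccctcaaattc
A match is a description of these letters, and neither binding nor activity was measured here.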

How the data were processed

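RNA of 8 ES cell cultures (4 untreated, 4 RA-treated) was measured on 1-colour Agilent arrays. The authors deposited scanner output of Feature Extraction (version 10.7.3.1), which holds a background-corrected intensity per spot that is not normalized between arrays, the raw and local background intensity, and flags, with positions on mm9. A second deposited table, of the authors' processed log2 values, was used here only as an alternative; its normalization is not given in the sources used here. The ChIP-seq data of the study were not used here.

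Processed intensities were put on the log2 scale in R (version 4.3.3) and set relative to each array's 75th percentile over non-control spots. Control spots (3671) and spots with an outlier flag (124 to 145 per array) were dropped, spots of a probe were averaged, and no dim probe was removed. For the members, 2 spot values of *Afp*, 3 of *Apoa1* and 1 of *Apoe* were left out in this way. A probe counted as well above background on an array where most of its spots did. Where a gene had several probes, the one brightest on average was used. RA-treated and untreated arrays were compared in limma (version 3.58.1; lmFit, then eBayes) with Benjamini-Hochberg adjustment over all 55681 probes, and calls needed an adjusted p below 0.05 and a change above 1.5-fold, the thresholds of the study's methods. For a probe dim on all arrays of a condition, the fold is a bound against the higher of its own signal and the lowest signal well above background on each array. Confidence intervals are at 95%. The number of arrays limits the precision. The steps were tested on simulated data.

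The members, gene lists and tests were chosen with earlier results of these data known. All members are named; of each list up to 4 called genes with the largest change are named, plus *Gata4*, *Gata6*, *Sox17*, *Foxa2*, *Hnf4a*, *Lrpap1*, *Plau*, *Apob*, *Rbp4* and *Trf*; the other genes named, the neighbours and the raised floor for dim values were chosen after values had been seen. Some genes of the lists count in the totals but are not reported here by name. Array names were matched to RefSeq (GRCm38.p6), and 18913 matched. Neither the labels nor the methods state that replicate numbers pair the cultures. Over 27491 probes well above background on all arrays, deviations from the condition mean were correlated between arrays. For replicates 1 to 4, arrays of the same number correlated at 0.186, 0.189, 0.104 and 0.151, and others at most at 0.142. The value for replicate 3 lay below that highest value. The 2 arrays of replicate 1 shared a slide, as did those of replicate 2, and those of replicates 3 and 4 did not. These values thus do not separate a pairing from a shared slide, and the replicate block was used only as an alternative. Alternatives were quantile normalization, the percentile over bright probes, normexp correction (offset 50) with each scaling, the authors' log2 values, a filter on dim probes, replicate and slide blocks, each slide alone, another probe per gene, a test against 1.5-fold, and each array left out.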

Additional observations from a re-analysis of the deposited data

Results flagged for a closer look

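A single array stood apart from the other 3 of its condition in 6 of 78 groups tested among members and named companion genes, where chance flags about 1 in 20 groups, or 3.9 here. Among the members, *Ttr* read -1.40 in RA-treated replicate 2 against 0.15 to 0.22 in the other RA-treated cultures, and *Apoa1* read -7.47 in untreated replicate 2 against -7.17 to -7.11, where no spot was well above background. The remaining flags were *Col4a2* in RA-treated replicate 1 (3.54 against 3.26 to 3.31) and, in untreated replicate 1, *Vim* (2.75 against 2.20 to 2.27), *Lrpap1* (3.97 against 4.55 to 4.65) and *Foxa2* (0.0090 against -1.04 to -0.91).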

How the results depend on the processing

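The count of members called higher was 7 with quantile normalization, with normexp, with the authors' log2 values and with the slide as a block, 5 to 7 over all other settings and 6 to 7 with an array left out, and 1 member, *Apoe*, was called lower under all of them. A pairing of the cultures by replicate number is not stated in the labels or methods. With replicate number as a block, 7 members were called higher and 1 lower, and no call of a member changed. Among the 69 companion genes the block changed the calls of *Apob*, *Gipc1* and *Lrpap1*, given above, and no other. *Lrp2* was not called within slide 1 (1.08), within slide 2 (0.98) or when tested against a change of 1.5-fold (1.03), and ranged from 0.83 to 1.24 with an array left out. *Cubn* was not called within slide 2 (2.51). *Apoa1*, dim on all arrays, changed sign from -0.30 to 0.0207 with quantile normalization, 0.0052 with normexp and quantile normalization and 0.0059 with the authors' values. Since no spot of it was well above background, these values give neither a direction nor a size of change. Of the 69 companion genes, 13 were called lower, but 7 with quantile normalization, 8 with normexp and quantile normalization, 7 with the authors' values, 6 within slide 1, 5 within slide 2 and 6 against 1.5-fold. Over all probes, 7196 were called higher and 12044 lower, and with quantile normalization, which moved the median change from -0.28 to -0.0026, 8152 and 8704. The probes called higher numbered 4206 within slide 1, 3964 within slide 2 and 4171 against 1.5-fold, and those called lower 6348, 5453 and 5728, with 6603 after normexp and quantile normalization and 6583 with the authors' values. Slides alone leave fewer arrays; other causes were not tested. Signal over background limits *Apoa1* on all arrays and *Ttr* and *Afp* in untreated cells, where the size of the rise depends on the background correction.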
